A study of Mus musculus with 2 samples.

Results

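The killer cell lectin-like receptors (Klr) and the C-type lectin family receptors (Clec) are cell-surface proteins that share the C-type lectin-like fold. They were read on 2 microarrays of the mouse line 661W, 1 from cells kept without choline and 1 from cells kept with it. All genes whose name on the array starts with Klra to Klrk or with Clec, followed by a digit, were taken. This gave 66 genes, with 96 probes at 105 spots, of 29607 gene names on the array, some of which are only a probe or transcript identifier. They comprise 16 Klra genes, 17 other Klr genes and 33 Clec genes. The family was chosen by the pattern of its Klra members on these same arrays, so the values are a description and nothing was tested.

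661W is an immortalised mouse line described by the submitters as photoreceptor cells. Both cultures were grown in DMEM/F12 with 10% fetal bovine serum and antibiotics. They were kept for 3 days in choline-deficient medium, or in choline-sufficient medium that the labels give as 8.98 g/L choline. That unit is uncertain, since formulations of this medium list choline chloride in mg/L. Each group was 1 array of total RNA, and the series' design text speaks of RNA pooled from 4 dishes. With 1 array a group there is no measure of the spread between cultures, and no test can be made.

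In mice the Klra genes encode the Ly49 receptors, which natural killer cells use to read MHC class I molecules on other cells. Inhibitory members carry a cytoplasmic motif that recruits the phosphatase Ptpn6, whereas activating members lack it and signal through the adaptor Tyrobp. The genes lie side by side on chromosome 6 in the natural killer gene complex, and their number and alleles differ greatly between mouse strains. Other Klr genes of the same complex encode the Nkrp1 receptors (Klrb1), the Cd94 and Nkg2 chains (Klrd1, Klrc, Klrk1) and related receptors. The Clec2 genes encode ligands of Nkrp1 receptors, and many of the remaining Clec genes encode receptors of myeloid cells, endothelium or liver sinusoids.

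The sequences that carry the values are the probes themselves, and several Klra probes are close copies of each other. The probes of Klra4, Klra15, Klra7, Klra23 and Klra6 share a stretch of 37 bases that ends in a stop triplet, shown here because several of the largest differences come from probes that hold it. Bases that differ from Klra4 are in capitals. The sequences were read from the array files, whose coordinates are mm9, and those placed on the genome lie on the minus strand of chromosome 6. Klra4 lies at chr6:129994035-129994094, Klra7 at chr6:130168899-130168958, Klra6 at chr6:129963349-129963408 and the Klra23 probes at chr6:130241179-130241238 and chr6:130241187-130241246. The Klra15 probe has no position in the files.
Klra4: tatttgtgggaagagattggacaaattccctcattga
Klra15: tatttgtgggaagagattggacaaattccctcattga
Klra7: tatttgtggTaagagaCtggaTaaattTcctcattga
Klra23, first probe: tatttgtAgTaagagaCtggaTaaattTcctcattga
Klra23, second probe: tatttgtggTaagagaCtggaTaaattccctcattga
Klra6: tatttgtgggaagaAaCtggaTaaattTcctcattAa

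Over this stretch Klra15 was identical to Klra4, the Klra23 probes differed from it at 5 and 3 bases, Klra7 at 4 and Klra6 at 5. Over the best-matching stretch of each pair, which need not be their whole overlap, the Klra4 and Klra15 probes shared 42 of 42 bases. The Klra4 and Klra7 probes shared 51 of 57, and the first Klra23 probe and the Klra7 probe shared 51 of 53. A signal at one of these probes may therefore include RNA of another Klra gene, and their values are not independent of each other. The gene names are those of the array's design. RefSeq's table (GRCm38.p6) holds 62 of the 66 names as symbols, but not Klra12, Klra15, Klra19 or Klra22. It lists Klra22 as a synonym of Klra1. In mm9 the mapped Klra15 probe and both Klra22 probes lie together at chr6:129922175-129922333, and the Klra1 probe lies beside a Klra16 probe at chr6:130314070-130314256. The number of Klra names is thus larger than the number of places they occupy.

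Each level is given as a percent of the array's own 75th percentile of signal, so that the quotient of a probe's 2 levels is its fold difference. Differences are log2 of the choline-deficient over the choline-sufficient level, and the error after ± is the scanner software's propagated error of the 2 spots, which holds nothing of the culture or the hybridisation. The arrays were similar in depth. Of 43020 non-control spots, 70.7% were well above background on the choline-deficient array and 68.5% on the choline-sufficient one, and none was saturated. Over the 19816 genes measured on both arrays the median difference was -0.096, with quartiles of -0.40 and 0.30.

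Of the 66 genes, 23 (34.8%) were well above background on both arrays, against 19816 of 29607 (66.9%) over all gene names. Another 38 (57.6%) were above background on neither array, against 28.5% over all. The subfamilies were unevenly detected. Klra had 10 of 16 genes on both arrays, Clec had 11 of 33 and the other Klr genes had 2 of 17. A total of 3 genes were above background on the choline-deficient array only, against 3.35% of all gene names, and these were Klra23, Klra6 and Klrb1a. A further 2, Clec2f and Clec4b1, were above background on the choline-sufficient array only, against 1.22% of all gene names.

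**Figure D1:**
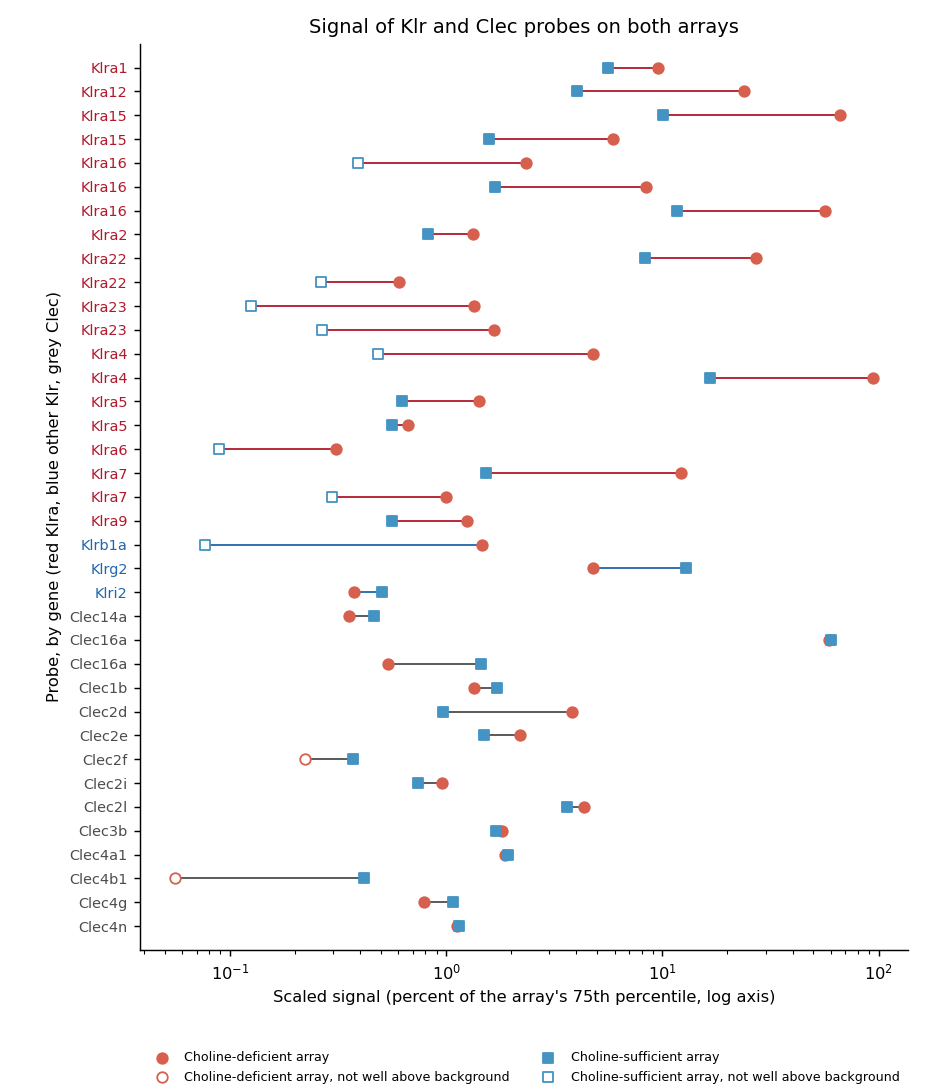
Levels of the Klr and Clec probes well above background on at least 1 array, as percent of each array's 75th percentile on a log axis. Each row is 1 probe with 1 point per array, and open points were not well above background. All 13 Klra probes measured on both arrays have the choline-deficient point to the right. They range from a Klra7 probe at 12.1% against 1.52% to a Klra5 probe at 0.663% against 0.562%. The Clec probes lie on both sides.

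All 10 measured Klra genes were higher on the choline-deficient array, by a median log2 difference of 2.0 (range 0.68 to 2.99), and 7 of them by at least 2-fold. Over all measured genes, the share past 2-fold on the higher side was 7.67%, and on the lower side 3.88%. Among the 9220 genes whose mean level lay within the range of the measured Klra genes, 11.0% were at least 2-fold higher. With a normexp background correction and an offset of 50, 8 of the 10 were higher, and Klra2 and Klra5 turned to the other side. The Klra pattern chose the family, so these shares are given beside the counts and nothing is read from them.

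The activating receptor gene Klra4 (Ly49D) was at 94.3% of the 75th percentile without choline and 16.7% with it. This is a difference of 2.50 ± 0.20, or 5.66-fold. The second Klra4 probe has no like probe of another gene on the array and lies at chr6:130012037-130012096. It stood at 4.77% without choline and was not well above background with choline, at 0.485%. The quotient of these levels was 9.84, which is not a bound. Both Klra4 probes thus lay well apart between the arrays.

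Klra7 (Ly49G), which encodes an inhibitory receptor, had the largest difference among the measured members, 12.1% against 1.52%, which is 2.99 ± 0.22 or 7.96-fold. It was 1.48 with the normexp correction, below Klra4 at 2.15 and Klra12 at 1.81, and 1.59 with no filter on dim probes, so neither its rank nor its size held under these settings. A second Klra7 probe was above background on the choline-deficient array only, at 2.99 times the lowest level called well above background on the choline-sufficient array. The third, placed across chr6:130181634-130183268, was above background on neither array.

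Klra12, Klra15, Klra16 and Klra22 are names of receptor genes known from particular strains. Klra12 was at 23.7% without choline and 4.04% with it, a difference of 2.55 ± 0.21. Klra15 was at 19.8% against 3.98%, and its probes gave differences of 2.72 and 1.90. The larger value came from the probe that matches Klra4, and the smaller from the probe without a like probe of another gene. Klra16 was at 21.8% against 4.43%, with probes that gave 2.33 and 2.26. Its remaining probe was above background without choline only, and the quotient of its levels was 6.01. Klra22 was at 27.0% against 8.28%, a difference of 1.70 ± 0.20. Its second probe was above background without choline only, at 1.82 times the lowest level called well above background with choline. With the normexp correction, the differences of Klra15 and Klra16 were 1.45 and 1.41.

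The 4 remaining measured Klra genes had smaller differences. Klra9 (Ly49I), an inhibitory receptor gene, was at 1.25% without choline and 0.559% with it, 1.16 ± 0.28 or 2.24-fold, just inside the 2-fold size. With the normexp correction its difference was 0.012, and it was the 1 of the 7 no longer at least 2-fold higher. Klra1 (Ly49A), the inhibitory receptor that binds H2-D molecules, was at 9.53% against 5.60%, 0.77 ± 0.21 or 1.70-fold, the nearest value outside it, and 0.44 with the normexp correction. The Klra1 probe shares a stretch of 33 bases, not its whole length, with a Klra16 probe whose difference was 2.33. Probes that share bases thus did not all have like values. Klra2 (Ly49B), known from myeloid cells, was at 1.32% against 0.824%, 0.68 ± 0.27.

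Klra5 (Ly49E), found on fetal natural killer cells, was at 0.966% against 0.591%, 0.71 ± 0.30. Its probes gave 1.18 and 0.24, although they share 44 bases. The second of these is printed at 10 spots, the one member probe with repeats that the arrays offer. Of these spots, 8 were higher on the choline-deficient array, with a mean of 0.24, an SD of 0.25 and a range of -0.12 to 0.61. The median SD of the 17 repeated probes of like level was 0.28, so at this level single spots scatter by more than the mean difference of that probe. This scatter is within an array and says nothing of cultures.

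Klra23 and Klra6 were above background on the choline-deficient array only. The Klra23 probes were at 1.34% against 0.124% and at 1.67% against 0.265%. Their levels without choline were 4.03 and 5.01 times the lowest level called well above background with choline. The third Klra23 probe was above background on neither array. Klra6 (Ly49F) was at 0.309% against 0.0886%, too near the lowest level called above background for a fold to be given. That lowest level on the choline-sufficient array was 0.333%, and where a probe's own level there was higher, as for Klra4 and Klra16, that level was used. These folds are not strict bounds, since the Klra4 probe was not called at 0.485%, above that lowest level. Klra8 (Ly49H), the activating receptor for a cytomegalovirus protein, Klra17 (Ly49Q), known from plasmacytoid dendritic cells, and Klra10 and Klra19 were above background on neither array.

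Counted by probe, 13 of the 29 Klra probes were measured on both arrays, and 10 of these were at least 2-fold higher without choline. Another 7 were above background on the choline-deficient array only, 0 on the choline-sufficient array only and 9 on neither. All 13 measured on both were brighter without choline, between 0.24 and 2.99. The direction of the other 7 is fixed by how they were detected, so they add nothing to that count. Among the 42 Clec probes 12 were measured on both, 0 on the choline-deficient array only and 2 on the choline-sufficient array only. Among the 25 other Klr probes these counts were 2, 1 and 0.

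**Figure D2:**
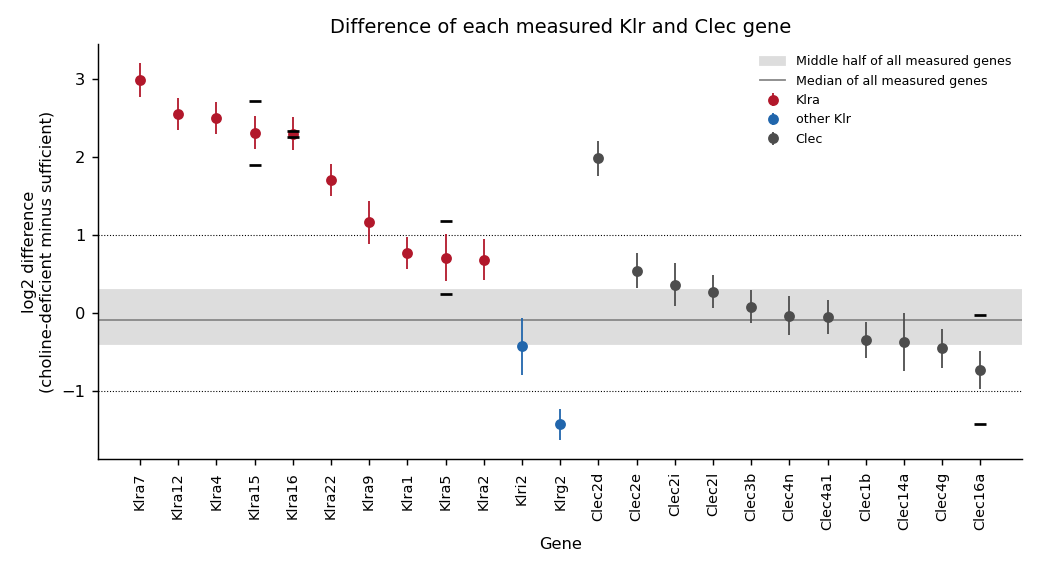
Differences of the Klr and Clec genes measured on both arrays, as log2 of choline-deficient over choline-sufficient, with bars for the scanner software's propagated error. The Klra genes lie between 0.68 and 2.99, Klrg2 lies lowest at -1.44 and Clec2d stands apart from the other Clec genes at 1.98.

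Likeness of probes was counted as at least 25 matching bases at no less than 85% identity, without gaps. By this measure 16 of 29 Klra probes (55.2%) had a like probe under another gene name, against 1 of 42 Clec probes, 1 of 25 other Klr probes and 3955 of all 39426 probes. The Klra probes with a like probe were nearly all detected without choline, 15 of 16, and the 9 measured on both arrays had a median difference of 2.33 (0.24 to 2.99). Of the 13 without one, 5 were above background without choline and 4 were measured on both, with a median of 1.17 (0.68 to 1.90). These 4 were probes of Klra15, Klra9, Klra5 and Klra2, and 3 of them were at least 2-fold higher. The part of shared sequence in the size of the Klra differences was not tested.

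The 3 detected other Klr genes differed in direction, with Klrg2 and Klri2 lower and Klrb1a higher without choline. Klrg2 was the one member at least 2-fold lower, at 4.77% without choline and 12.9% with it, a difference of -1.44 ± 0.21 or 2.70-fold lower. It lies at chr6:38577693-38578111, far from the Klra genes. Klri2, whose product pairs with that of Klre1, was at 0.374% against 0.505%, -0.43 ± 0.36, a difference little larger than its error. Klrb1a, of the Nkrp1 receptors, was at 1.46% without choline and not well above background with it, at 0.0761%. Its level without choline was 4.38 times the lowest level called well above background with choline.

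The remaining 14 were above background on neither array. They include the genes that define mature natural killer cells, Klrb1c (NK1.1), Klrk1 (Nkg2d) and Klrd1 (Cd94). The others were Klrb1, Klrb1-ps1, Klrb1b, Klrb1f, Klrc1, Klrc2, Klrc3, Klre1, Klrg1, Klrh1 and Klri1. The receptor genes of the complex were thus mostly below detection, and the detected ones were mainly Klra.

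The Clec genes lay on both sides of 0, with 5 above and 6 below, a median of -0.036 and a range of -0.73 to 1.98. Of the 11 measured, 1 was at least 2-fold higher (7.67% over all measured genes) and 0 were at least 2-fold lower (3.88%). The 1 was Clec2d (Clr-b), which encodes a ligand of inhibitory Nkrp1 receptors. It was at 3.82% without choline and 0.965% with it, a difference of 1.98 ± 0.23 or 3.96-fold. With the normexp correction its difference was 0.56, below 2-fold.

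The 4 measured Clec2 genes were all higher without choline, with a median of 0.45, but with the normexp correction Clec2e, Clec2i and Clec2l turned to the other side. Clec2e (Clr-a) was at 2.18% against 1.5%, 0.54 ± 0.22. Clec2i (Clr-g), a ligand of the Nkrp1 receptor Klrb1f, was at 0.951% against 0.740%, 0.36 ± 0.28. Clec2l, known from brain, was at 4.35% against 3.60%, 0.27 ± 0.21. Clec2f was above background with choline only, at 0.220% without choline and 0.370% with it. Its level with choline was 1.43 times the lowest level called well above background without choline. The second Clec2f probe was above background on neither array. Clec2d therefore stood apart in size from the neighbours of its own subfamily.

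Clec16a, a regulator of mitophagy whose product is no lectin receptor, was the lowest Clec gene at 5.63% against 9.35%, -0.73 ± 0.24. Its probes differed widely. The bright one, at chr16:10744705-10744764, was at 59.2% against 60.5%, a difference of -0.032. The dim one, placed across chr16:10630874-10635377, was at 0.535% against 1.45%, -1.43. Its remaining probe was above background on neither array, and the value of the gene therefore rests on the dim probe.

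Receptors of myeloid cells, platelets and endothelium differed by less than 1.5-fold where they were measured. Clec4n (dectin-2), a receptor for fungal mannans, was at 1.12% against 1.15%, -0.036 ± 0.25. Clec4a1 was at 1.86% against 1.93%, -0.056 ± 0.22. Clec4g, of liver sinusoids, was at 0.786% against 1.08%, -0.46 ± 0.25. Clec1b, the platelet receptor for podoplanin, was at 1.34% against 1.72%, -0.35 ± 0.23, and its other probes were above background on neither array. Clec14a, of endothelium, was at 0.355% against 0.460%, -0.37 ± 0.37, and its other probe was above background on neither array. The secreted tetranectin gene Clec3b was at 1.80% against 1.70%, 0.080 ± 0.22. Clec4b1 was above background with choline only, at 0.0556% without choline and 0.414% with it. Its level with choline was 1.60 times the lowest level called well above background without choline. The second Clec4b1 probe was above background on neither array.

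The other 20 Clec genes were above background on neither array. They include the pattern receptor genes Clec7a (dectin-1), Clec4e (Mincle) and Clec4d, and Clec9a and Clec12a of dendritic and myeloid cells. The others were Clec10a, Clec11a, Clec12b, Clec18a, Clec1a, Clec2g, Clec2h, Clec2m, Clec3a, Clec4a2, Clec4a3, Clec4a4, Clec4b2, Clec4f and Clec5a. Taking the 23 measured members as a whole, 8 were past 2-fold on the higher side and 1 on the lower, and the median was 0.54. Over all measured genes the shares were 7.67% and 3.88%, and the median was -0.096.

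Of the 66 genes, 57 have a probe on chromosome 6, and 43 lie in the window chr6:128418515-131319345 that holds the complex, from the first Klrb1 to the last Klra probe with a margin either side. The window was chosen after the values were seen. It holds 15 of the 16 Klra genes, 15 of the 17 other Klr genes and 13 of the 33 Clec genes. Of its 65 member probes, 15 were measured on both arrays, 8 of these were at least 2-fold higher and 0 were at least 2-fold lower. Of its 43 probes of other or no named genes, 16 were measured on both, 4 were at least 2-fold higher and 0 were at least 2-fold lower. By gene rather than by probe, 7.67% of all measured genes were past 2-fold on the higher side and 3.88% on the lower.

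**Figure D3:**
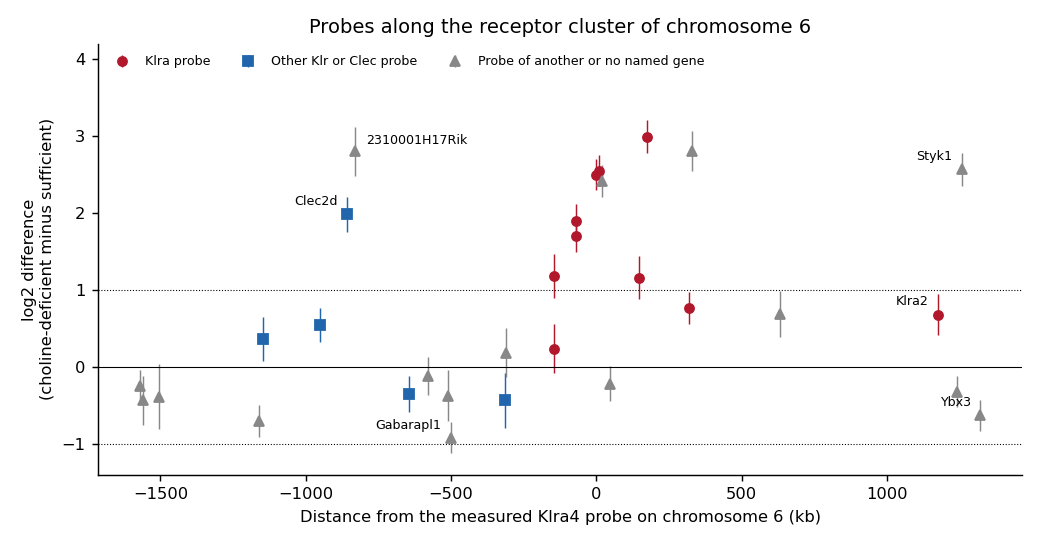
Differences of the measured probes of the chromosome 6 complex against their distance in kb from the Klra4 probe, with bars for the propagated error and dotted lines at 2-fold. Most measured probes near Klra4 are high, as are 2310001H17Rik beside Clec2d and Styk1 at 1256 kb, whereas an unnamed probe 44.9 kb from Klra4 lies at -0.22 and Gabarapl1 at -0.92.

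Those 4 were 2310001H17Rik, 2 probes without a gene name and Styk1. The Clec2d probe (chr6:129136413-129136472) has the probe of the noncoding 2310001H17Rik as a neighbour at chr6:129163466-129163525. That probe was at 2.91% against 0.416%, 2.81 ± 0.32. Styk1, a kinase-like membrane protein gene, was at 9.64% against 1.62%, 2.57 ± 0.21. Gabarapl1, an autophagy gene inside the complex, was lower at 2313% against 4369%, -0.92 ± 0.20, and Magohb and Ybx3 next to Styk1 gave -0.32 and -0.63. Between the outermost Klra probes of the dense part of the window, chr6:129815690-130314256, 2 of the 6 probes of other or no named genes were measured on both arrays. Of these 1 was at least 2-fold higher, and the other, an unnamed probe at chr6:130038982-130039041, was at 1.23% against 1.44%, -0.22. High and low probes were therefore found side by side along the window.

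The unnamed probes lay at chr6:130013116-130013175, with 19.7% against 3.68% and a difference of 2.42 ± 0.21, and at chr6:130322829-130322888, with 4.51% against 0.644% and a difference of 2.81 ± 0.27. The latter is shown whole because it matches named Klra probes although it carries no gene name on the array. In the Klra23 and Klra12 probes below it, capitals mark bases equal to the unnamed probe, 45 of 49 in the third Klra23 probe and 34 of 36 in the Klra12 probe.
Unnamed probe: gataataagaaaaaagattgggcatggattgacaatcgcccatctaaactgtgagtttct
Klra23, other probe: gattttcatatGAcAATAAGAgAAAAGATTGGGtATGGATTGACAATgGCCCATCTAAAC
Klra12: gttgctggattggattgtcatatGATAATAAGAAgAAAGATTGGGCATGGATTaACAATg

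The Klra23 probe of this set shares 42 of 48 bases with the Klra12 probe and was above background on neither array, whereas the unnamed probe and the Klra12 probe were at 4.51% and 23.7% without choline. The unnamed probe differed 7.01-fold between the arrays, and the Klra12 probe 5.87-fold. A difference of Klra size was thus also seen at a Klra-like probe that the gene names do not reach, and alike probes again differed in detection.

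Ligands of the receptors were measured more often than the receptors themselves. Of 20 ligand genes on the array, 17 were measured, beside 66.9% of all gene names. Their median was 0.63. Of the 17, 2 were at least 2-fold higher without choline (7.67% over all measured genes) and 0 at least 2-fold lower (3.88%). The 2 were Raet1c (60.2% against 26.7%, 1.17 ± 0.20) and Ulbp1 (28.9% against 14.4%, 1.0 ± 0.20), whose products are stress ligands of Klrk1. Raet1a at 0.90, Raet1e at 0.81, Raet1b at 0.78 and Pdpn, the ligand of Clec1b, at 0.80 were higher by less than 2-fold. The MHC class I genes and B2m were mostly lower without choline. H2-D1 was at 1853% against 3100%, a difference of -0.74 ± 0.20. B2m gave -0.32, H2-K1 -0.28, H2-Q10 -0.15 and H2-T23 -0.14, whereas H2-M3 gave 0.19, each ± 0.20. The median of all measured genes was -0.096, and spike-in scaling moved it by 0.27. The side on which H2-Q10 and H2-T23 lie therefore depends on the scaling.

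Of 31 adaptors and signalling genes 24 were measured, with 5 at least 2-fold higher, 2 at least 2-fold lower and a median of 0.15. Over all measured genes the shares were 7.67% higher and 3.88% lower. Tyrobp, the adaptor of the activating Klra receptors, was above background on neither array, nor were Hcst, the adaptor of Klrk1, and Card9. Inpp5d, a phosphatase of inhibitory receptors, was at 2.21% against 0.427%, 2.37 ± 0.31. Nfatc2 gave 1.74 ± 0.21, Syk 1.49 ± 0.30 and Lyn 1.07 ± 0.21. The T cell kinase gene Lck was lower, at 35.3% against 187%, -2.41 ± 0.20, and Cd247 gave -1.06 ± 0.29.

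Of 44 other genes with a C-type lectin domain 20 were measured, with 4 at least 2-fold higher, 0 at least 2-fold lower and a median of -0.060, beside 7.67% and 3.88% past 2-fold and a median of -0.096 over all genes. The 4 encode the stromal glycoprotein Cd248 (308% against 70.0%, 2.14 ± 0.20), the collagen receptor Mrc2 (1.84 ± 0.25), the matrix proteoglycan Vcan (1.55 ± 0.20) and the hyaluronan receptor Layn (1.36 ± 0.21). Ly75 gave -0.83 ± 0.21 and Cd93 -0.66 ± 0.23. A total of 22 were above background on neither array, among them Cd69, Olr1 and Mrc1. The wider lectin list thus held high members while its median lay near that of all genes.

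Markers of cells that carry these receptors were set beside the Klra values, since an array of bulk RNA cannot tell more cells of a type from more RNA per cell. Of 13 natural killer cell markers, 3 of which are members, 7 were measured. Il2rb was at 4.85% against 1.14%, 4.27-fold higher without choline, and Tbx21 was at 0.551% against 1.75%, 3.19-fold lower. Eomes gave -0.42, Cd244a 0.34, Prf1 -0.32 and Nkg7 -0.15. Ncr1, Klrb1c, Klrk1, Klrd1, Gzmb and Itga2 were above background on neither array, and the median was -0.15.

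Lists of other blood and vessel cells had medians on both sides of that of all genes. They were -0.16 over 6 measured T cell markers and -0.29 over 2 B cell markers. Of the T cell markers 2 were at least 2-fold lower (3.88% over all measured genes). These were Lck and Cd247, the same 2 genes that were lower in the signalling list. The medians were 0.057 over 9 macrophage and monocyte markers, -0.066 over 5 dendritic cell markers, -0.091 over 4 granulocyte markers and -0.23 over 4 endothelial and platelet markers. Aif1 was 2.43-fold, the platelet integrin gene Itga2b 3.46-fold and Cd14 1.54-fold higher without choline, and Fcgr1, S100a8 and Pf4 were above background without choline only. Tek and Gp9 were above background with choline only, and Lyz2 and Tyrobp on neither array. The part of such cells in the Klra values was not tested. The leukocyte gene Ptprc was at 0.514% against 0.619%.

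Of 12 cone photoreceptor markers 7 were measured, with a median of 0.56 and Thrb alone at least 2-fold higher (1.17 ± 0.23). Opn1sw, Cngb3 and Crx were above background on neither array, Cnga3 on the choline-deficient array only and Pde6c on the choline-sufficient array only. Opn1mw was at 1.23% against 1.0%, Arr3 at 1.14% against 1.52% and Pde6h at 0.640% against 0.351%. Rxrg was at 60.6% against 69.3%, Gnat2 at 22.7% against 15.4% and Gngt2 at 15.8% against 9.57%. Over all gene names 66.9% were measured, and nothing about the labelled cell type is read from the count of cone markers. Of 8 fibroblast markers 7 were measured, 5 of them at least 2-fold higher without choline, with a median of 1.79. Over all measured genes the share at least 2-fold higher was 7.67%. Col1a1 was 13.5-fold and Pdgfra 3.45-fold higher. These 5 differed between the arrays in the same direction as Klra, and their part in the Klra values was not tested.

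**Figure D4:**
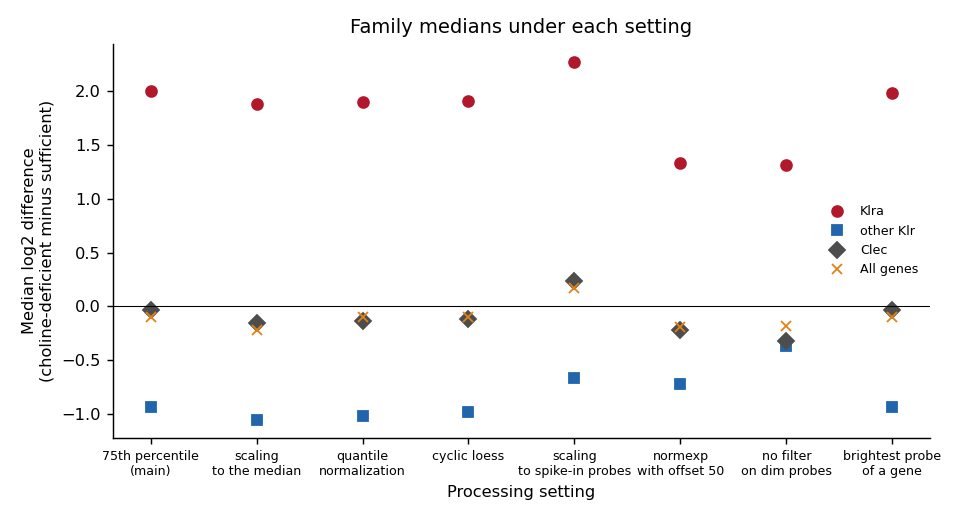
Median log2 difference of the measured Klra, other Klr and Clec genes under the main setting and other processings, with the median of all genes beside them. The settings with brighter probes only and with the deposited value table are not drawn. The Klra median lies above the others throughout, at 2.0 in the main setting, 2.27 with scaling to spike-in probes and 1.33 with the normexp correction.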

How the data were processed

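Both deposited scanner files hold spot intensity, and the submitters' processing notes name Agilent Feature Extraction 12.1.1.1. Per the file headers, its processed signal has the background subtracted and a spatial trend of the array removed. The deposited value table holds each array's signal divided by 1 constant, a linear ratio (1609 without and 1280 with choline, medians 0.0358 and 0.0337), and served as an alternative. Control spots and outlier spots (92 and 86) were left out. Signals were divided by the array's 75th percentile and logged, repeated spots averaged, and a gene is the mean of its probes that were well above background on both arrays (26461 of 39426 probes). The error of a gene is the root mean square of its probes' errors. A gene at least 2-fold apart was counted. No test was made with 1 array a group. For probes called on 1 array only, folds compare the bright level with the higher of the dim signal and the lowest level called on the dim array. They are not strict bounds. Every member is named. Up to 6 genes of each related list are named, mainly those with the largest differences, and more of the ligand and cone lists. The members and lists were chosen with earlier results of these data known. Likeness of probes was searched from shared words of 10 bases on the same strand. Python 3.11.15, pandas 2.3.3, R 4.3.3 and limma 3.58.1 (quantile, cyclic loess, normexp) were used, and the counting step was tested on simulated data. Of the list names, Attrn, Attrnl1, H2-L, Raet1d and Trac matched no array name. The number of arrays limits the precision, as does the low signal of many members.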

Additional observations from a re-analysis of the deposited data

How the results depend on the processing

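No paired analysis was possible because each group was 1 array and the labels carry no replicate number, and for the same reason no array could be left out. Between 7 and 9 Klra genes were at least 2-fold higher under median scaling, quantile normalization, spike-in scaling (5 probes), cyclic loess, no filter on dim probes, the brightest probe and the deposited table, and these included the 7 of the main setting each time. With normexp, 6 of these 7 were, without Klra9. Scaling moved the median of all genes by -0.12 (median) and by 0.27 (spike-in), and the share of higher among all genes at least 2-fold apart was 66.4%, 53.7% and 85.6% in the main, median and spike-in scaling. With spike-in scaling the medians were 0.81 for members, 2.27 for Klra and 0.24 for Clec. With normexp they were -0.11 for members and 1.33 for Klra, and 0 Clec genes were at least 2-fold higher. With no filter on dim probes the medians were -0.31 for members, 1.31 for Klra, -0.37 for other Klr and -0.33 for Clec. The counts were then 5 members lower, 1 other Klr higher, 2 other Klr lower and 3 Clec lower. With brighter probes only, 2 members were left, with a median of 1.23 and 2.50 for the 1 Klra gene. The counts were 1 member higher, 0 lower, 1 Klra higher and 0 Clec higher. At 1.5-fold 2 members were lower, 1 of them Clec, and at 3-fold 0 members and 0 other Klr were lower. With only Klra probes that have no like probe, chosen after seeing the data, 3 of 4 genes were at least 2-fold higher with a median of 1.17. The cause of these changes was not tested.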
